A study of Homo sapiens with 4 samples.

Results

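The genes described here are 9 members and transcriptional targets of the WNT/beta-catenin pathway: the secreted antagonist DKK1, the co-receptor LRP6, the ubiquitin ligase ZNRF3, the transducer CTNNB1, the feedback inhibitors AXIN2 and NKD2, the transcription factors TCF7L2 and LEF1, and the target CD44. They were taken by gene symbol from an Affymetrix expression array, and 36 of its 54675 probe sets map to one of these symbols and to no other gene. Each gene was represented by its brightest probe set, the one with the highest mean log2(signal + 1), and the others are given beside it. These are 9 of 19775 genes represented in this way.

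The arrays compared MIA PaCa-2 cells, an established human pancreatic carcinoma line, in 2 states. The ING3 cells carried a lentivirus that expresses full-length ING3 with a FLAG tag from a CMV/TO vector, and the control cells carried a lentivirus that expresses GFP. Each state was measured on 2 arrays, a and b. The labels speak of stable clones in each state without giving their number, and of RNA taken near confluence, and no array here is of cells without a lentivirus. The design text describes the arrays of a state as technical duplicates, so every p-value sets a difference against the spread between such duplicates and not between independent cultures. ING3 belongs to the NuA4/TIP60 complex, which acetylates histones, and the question was which transcripts differ when it is overexpressed.

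WNT proteins bind Frizzled receptors together with the co-receptors LRP5 and LRP6, and this keeps beta-catenin, the product of CTNNB1, from being degraded by the destruction complex that AXIN and APC scaffold. Beta-catenin then binds TCF/LEF factors on DNA and switches on target genes. Several targets, among them AXIN2, ZNRF3, NKD2 and DKK1, act back as inhibitors of the pathway. Pancreatic ductal carcinoma lines can depend on WNT ligands when RNF43, a relative of ZNRF3, is lost.

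The promoters of the 2 members with a probe set that rose at any level of the analysis, DKK1 and CD44, are shown to let a reader see whether TCF/LEF letters lie near their starts. Both windows run from 250 bases before to 50 bases after the RefSeq start on GRCh38.p14. The DKK1 window is chr10:52314031-52314330 and the CD44 window is chr11:35138921-35139220, both on the plus strand. Capitals mark a TCF/LEF core, searched on both strands as CTTTG followed by 2 bases that are each A or T.
DKK1: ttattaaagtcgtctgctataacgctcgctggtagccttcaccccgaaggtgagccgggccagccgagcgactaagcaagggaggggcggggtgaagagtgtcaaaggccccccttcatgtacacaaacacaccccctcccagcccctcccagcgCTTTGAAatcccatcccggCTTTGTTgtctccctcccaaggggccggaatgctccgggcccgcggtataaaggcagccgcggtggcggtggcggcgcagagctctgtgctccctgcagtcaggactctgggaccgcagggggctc
CD44: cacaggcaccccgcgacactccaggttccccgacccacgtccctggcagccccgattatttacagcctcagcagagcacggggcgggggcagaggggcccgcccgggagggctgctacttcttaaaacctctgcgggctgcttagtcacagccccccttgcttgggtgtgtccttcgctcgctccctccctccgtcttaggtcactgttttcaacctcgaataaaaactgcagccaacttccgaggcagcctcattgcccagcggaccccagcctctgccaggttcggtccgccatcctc

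The DKK1 window held 2 such cores on its own strand, CTTTGAA at bases -95 to -89 and CTTTGTT at bases -76 to -70, counted from the start as 1. The CD44 window held none, and neither held the AP-1 motif TGANTCA. Of 35116 windows of the same length in the RefSeq table, 13.8% held a TCF/LEF core and 7.71% held the AP-1 motif. Windows matched by symbol for 6 members (not AXIN2, LRP6 and ZNRF3), and of these 6 the DKK1 window alone held a core. The match is a description of the letters only.

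Of the 9 members, 8 were bright enough to be tested and LEF1 was not. The level required was a mean log2(signal + 1) over the 4 arrays no lower than the median probe set, which corresponds to a signal near 64.6. By limma, with Benjamini-Hochberg adjustment over 12190 genes and a threshold of 0.05, DKK1 rose, 0 members fell and 7 did not pass. In all tested genes 1.5% were called and 1.03% rose. The groups did not overlap for 6 of the 8 tested members, 2 with the ING3 arrays the higher and 4 with them the lower, against 49.2% of all tested genes. The median log2 difference of the 8 was -0.062, and that of all tested genes was -0.0074. In bulk RNA, fewer cells of a type and less RNA per cell cannot be told apart.

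The arrays of a state were alike in scale, and a few facts of the whole series bear on the values. All arrays had the same trimmed mean signal, 500.1 after 2% of probe sets were dropped at each end. RNA integrity, read as ACTB signal at the 3' end over that at the 5' end, gave 2.05 and 2.03 for the ING3 arrays and 2.58 and 1.80 for the control arrays. The same ratio for GAPDH was 0.903 and 0.923 for the ING3 arrays and 0.934 and 0.905 for the control arrays. The brightest ING3 probe set had 521 and 541 on the ING3 arrays, against 338 and 373 on the control arrays (log2 difference 0.58, SE 0.13, adjusted p = 0.071, not called), and its next brightest had 261 and 222 against 287 and 261. Of 5 epithelial markers KRT8 and KRT19 rose, KRT18 did not pass and EPCAM and CDH1, defining genes of epithelium, lay under the brightness filter, at no more than 26.8 on the ING3 arrays and 37.9 on the control arrays. KRT8 was called in 6 and KRT19 in 10 of 14 other processing settings. The summed epithelial signal was 45090 to 48174 in ING3 cells and 39924 to 40095 in control cells. Its largest part was KRT18, with 27068 and 30058 in ING3 cells, against 26440 and 25701 in control cells. Of 3 markers of the mesenchymal form of a carcinoma line 2 were tested and 0 called. VIM had 24294 and 26668 in ING3 cells, against 27676 and 25627 in control cells, and overlapped. ZEB1 was higher on both ING3 arrays (log2 difference 0.21, SE 0.069, limma adjusted p = 0.17). CDH2 lay under the filter, higher on both ING3 arrays. The summed signals of 5 fibroblast markers were 4096 to 4344 in ING3 cells and 4910 to 5065 in control cells, and 0 of the 3 tested were called. Most of that sum was COL1A2, with 3749 and 3996 in ING3 cells, against 4648 and 4548 in control cells. COL1A1 was also lower on both ING3 arrays. LUM, under the filter, was higher on both, and DCN and PDGFRB overlapped. The summed signals of 4 leukocyte markers were 269 to 278 in ING3 cells and 140 to 347 in control cells. PTPRC, the pan-leukocyte marker, lay under the filter, and the 2 that were tested, CD3E and LYZ, overlapped between the states. The part of these shifts in the WNT genes' values was not tested.

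DKK1, which binds LRP5 and LRP6 and blocks WNT signalling at the cell surface, had a signal of 6903 and 7374 in ING3 cells, against 5508 and 5653 in control cells. Both ING3 arrays stood above both control arrays, and the smallest gap between the states, 0.29 on the log2 scale, was wider than the gap between duplicates, 0.095 in ING3 cells and 0.038 in control cells. The mean was 7139 ± 333 in ING3 cells and 5580 ± 103 in control cells (SD, n = 2 arrays each), a log2 difference of 0.35 with a 95% interval of 0.22 to 0.49 (1.28-fold, SE 0.061). The limma adjusted p was 0.028, and DKK1 ranked 91st by p and 685th by signed difference among the 12190 genes. It has 1 probe set. When every probe set past the filter was tested, 27307 in all, the same values gave an adjusted p of 0.068.

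The call on DKK1 was lost in several other fits, while its direction was not. Without control array a the log2 difference was 0.34 and the adjusted p 0.28, and without control array b they were 0.37 and 0.26, where limma called 2 genes in each case. With no intensity trend in the variance model the adjusted p was 0.28, and limma then called 0 genes (1686 at an unadjusted p under 0.05). After quantile normalization the difference was 0.30 and the adjusted p 0.052. DKK1 lies among the brightest 10% of tested genes, where the median log2 difference was 0.055 and 2.71% of genes rose. Among the dimmest 10% these values were -0.082 and 0%. The part of brightness in the value of DKK1 was not tested.

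**Figure D1:**
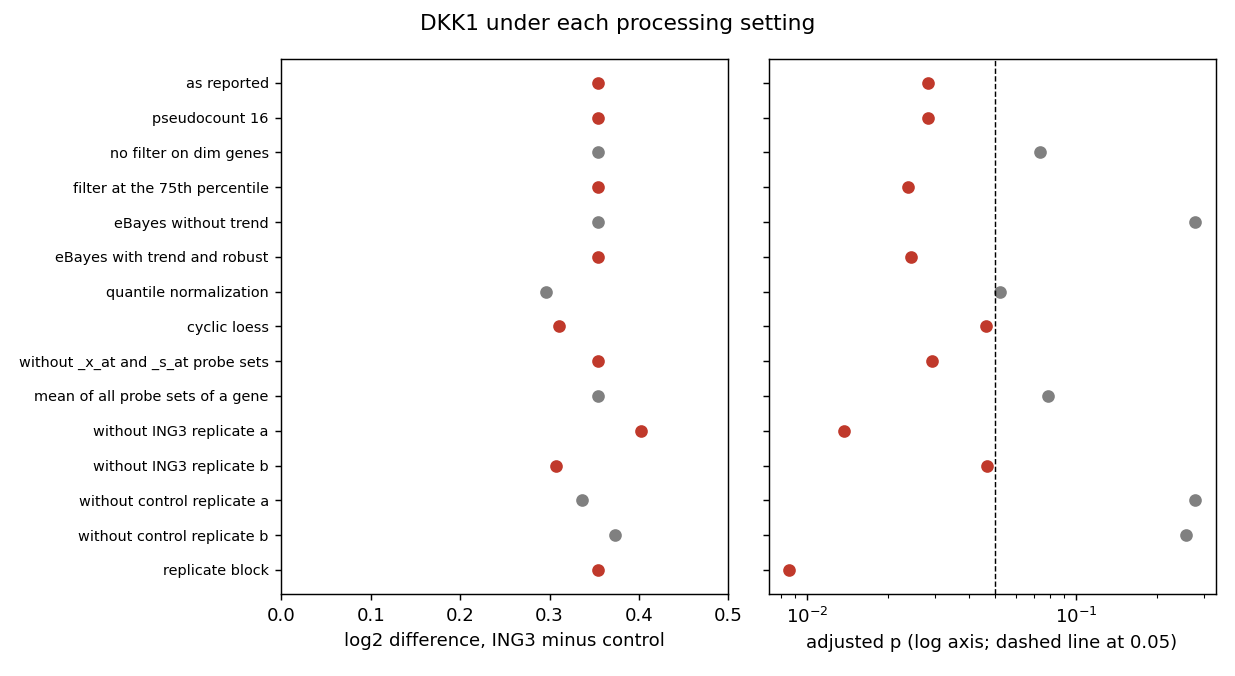
Log2 difference of DKK1, ING3 minus control (left), and its limma adjusted p on a log axis (right), as reported and under 14 other settings, with red points where the adjusted p is under 0.05. The difference lies between 0.30 and 0.40 throughout, while 8 of the 14 settings keep the adjusted p under 0.05.

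LRP6, the co-receptor that DKK1 binds, had a signal of 2201 and 2236 in ING3 cells, against 2264 and 2407 in control cells. Both ING3 arrays were the lower, by a gap of 0.018 on the log2 scale that was smaller than that between the control duplicates, 0.089. The log2 difference was -0.074 (SE 0.071, 95% interval -0.23 to 0.086, adjusted p = 0.64). Its other probe sets were much dimmer, with 126 and 118 against 88.9 and 145 on the first and 116 and 89.4 against 124 and 119 on the second, ING3 before control. They gave log2 differences of 0.11 and -0.25, so the probe sets of LRP6 did not share a direction and none was called.

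ZNRF3, a membrane ubiquitin ligase that removes Frizzled and LRP6 from the cell surface and is held back by R-spondins, had 832 and 876 in ING3 cells, against 937 and 914 in control cells. The states did not overlap, and the smallest gap between them, 0.061, was within the duplicate gap of 0.074 in ING3 cells. Its log2 difference was -0.12 (SE 0.094, 95% interval -0.33 to 0.097, adjusted p = 0.57).

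CTNNB1, which encodes beta-catenin, had 8760 and 9612 in ING3 cells, against 8439 and 8365 in control cells. Both ING3 arrays were the higher, though they lay further from each other, by 0.13 on the log2 scale, than the nearer one did from the control arrays, by 0.054. The log2 difference was 0.13 (SE 0.062, 95% interval -0.013 to 0.27, adjusted p = 0.32). The other 2 probe sets, with means of 377 ± 5.49 and 359 ± 35.6 in ING3 cells and 364 ± 24.6 and 322 ± 18.7 in control cells (SD, n = 2), overlapped between the states. All 3 probe sets of CTNNB1 had the higher mean in ING3 cells and none was called.

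AXIN2, a scaffold of the destruction complex that is also a direct WNT target, was close to the brightness filter. Its brightest probe set had 58.0 and 65.7 in ING3 cells, against 103 and 65.1 in control cells. One control array alone stood apart, so the states overlapped, and the log2 difference of -0.40 had a 95% interval of -1.28 to 0.48 (SE 0.39, adjusted p = 0.65). The other 3 probe sets of AXIN2 lay under the filter, with signals of 8.07 to 36.6 on the ING3 arrays and 7.33 to 31.5 on the control arrays. A 2-fold lower level of AXIN2 lies within that interval, and so do no difference and a higher level.

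NKD2, which binds Dishevelled and dampens WNT signalling, had 468 and 460 in ING3 cells, against 400 and 479 in control cells. The ING3 values lay between the control values. Its log2 difference was 0.083 (SE 0.14, 95% interval -0.23 to 0.40, adjusted p = 0.81), and without control array a it was -0.048.

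**Figure D2:**
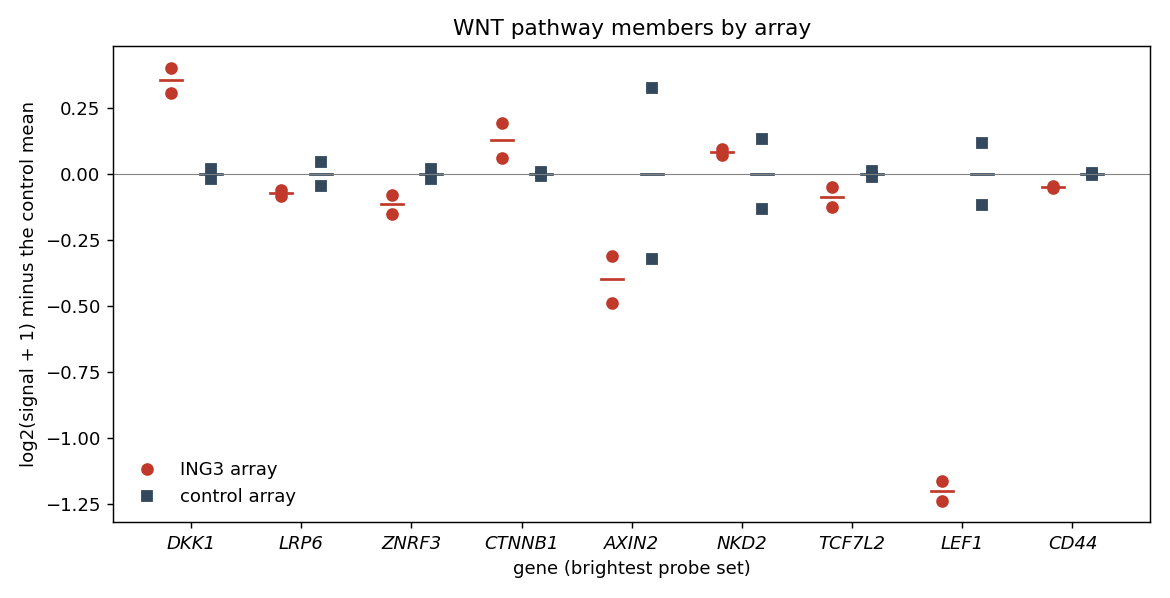
Signal of the brightest probe set of each of the 9 genes on each array, as log2(signal + 1) minus the mean of the control arrays, with ING3 arrays as red circles left of the control arrays as dark squares, and short lines at group means (n = 2). DKK1 lies above its control arrays, LEF1 lies 1.20 below on average, and the control arrays of AXIN2 are 0.65 apart.

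TCF7L2, the TCF factor that carries most beta-catenin output in gut epithelium, had 4037 and 4253 in ING3 cells, against 4440 and 4375 in control cells. Both ING3 arrays were the lower, by a gap of 0.041 that was within the ING3 duplicate gap of 0.075. The log2 difference was -0.089 (SE 0.062, 95% interval -0.23 to 0.050, adjusted p = 0.49). Of all tested genes, each read by its brightest probe set, 49.2% did not overlap, and the share over all tested probe sets was not computed. Of the 5 tested probe sets of TCF7L2 4 had the lower mean in ING3 cells and 3 did not overlap. The second brightest, of the _x_at kind that can hybridise to other transcripts, had 1064 and 1071 in ING3 cells, against 1316 and 1275 in control cells, a log2 difference of -0.28 with a 95% interval of -0.47 to -0.084 (SE 0.085) that did not pass over all probe sets (adjusted p = 0.20). The third, also of that kind, had 973 on each ING3 array, against 910 and 1017 in control cells, and overlapped. The fourth had 666 and 664 in ING3 cells, against 746 and 745 in control cells, and the fifth had 129 and 220, against 199 and 230. Their log2 differences were -0.16 (SE 0.10) and -0.34 (SE 0.27), and neither passed. The other 2 probe sets of TCF7L2 lay under the brightness filter and were not tested. One overlapped, with 70.6 and 46.3 in ING3 cells, against 54.3 and 75.5 in control cells. The dimmest had 43.4 and 4.55 in ING3 cells, against 78.7 and 60.1 in control cells, a log2 difference of -2.15 in which the ING3 duplicates were far apart.

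LEF1, a TCF family factor that is itself a WNT target, was not tested, since its mean lay under the brightness filter. Its brightest probe set had 32.6 and 34.4 in ING3 cells, against 72.1 and 84.9 in control cells. The states did not overlap, and the mean was 33.5 ± 1.24 in ING3 cells and 78.5 ± 9.07 in control cells (SD, n = 2), a log2 difference of -1.20. With every gene admitted to the test its limma adjusted p was 0.34. The next probe set had 29.9 and 11.2 in ING3 cells, against 35.9 and 17.5 in control cells, and the dimmest had 9.62 and 5.85, against 4.97 and 5.92. Both overlapped, and the log2 differences were -0.42 and 0.41. The separation of the states in LEF1 was therefore seen on 1 of 3 probe sets, all of them dim.

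CD44, a hyaluronan receptor and WNT target whose exons are alternatively spliced, gave different values on different probe sets. The one that represents it had 24755 and 24618 in ING3 cells, against 25476 and 25625 in control cells. Both ING3 arrays were slightly the lower, and the log2 difference was -0.050 (SE 0.050, 95% interval -0.16 to 0.064, adjusted p = 0.66). It was among the brightest probe sets, on arrays whose highest signal was 40081 and 43982 in ING3 cells and 44383 and 40327 in control cells, and whether it was near saturation was not tested.

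Most of the other bright CD44 probe sets were higher in ING3 cells. The third brightest probe set had 18677 and 17886 in ING3 cells, against 12957 and 12868 in control cells, a log2 difference of 0.50 (1.42-fold, SE 0.055, 95% interval 0.38 to 0.63), and it rose with a limma adjusted p of 0.015 over all probe sets. Its seventh brightest had 9265 and 10122 in ING3 cells, against 6784 and 7314 in control cells, a log2 difference of 0.46 (adjusted p = 0.042). Both ING3 arrays stood clear of both control arrays on each of them. The sixth brightest rose by 0.42 (log2), with means of 14120 ± 527 in ING3 cells and 10566 ± 509 in control cells (SD, n = 2, limma adjusted p = 0.040). The ninth brightest had 2255 and 2359 in ING3 cells, against 1604 and 1691 in control cells, and rose by 0.49 (log2, adjusted p = 0.048). The second, the fourth and the fifth brightest were also above their control arrays without passing. They averaged 21141 ± 555, 16361 ± 565 and 15325 ± 1531 in ING3 cells, against 18508 ± 785, 13218 ± 276 and 11512 ± 712 in control cells (SD, n = 2), and their log2 differences were 0.19, 0.31 and 0.41 (limma adjusted p = 0.19, 0.072 and 0.080). The 4 probe sets that rose may read overlapping parts of the same transcripts and are not independent measurements. Their calls did not hold throughout. Of 12 other settings run on probe sets, the third brightest was called in 8, the sixth in 5, the seventh in 6 and the ninth in 4.

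Over all 12 tested CD44 probe sets 4 rose, 0 fell and 8 were not called. At the level of probe sets 0.37% of all tested were called and 0.267% rose, and of the 27 tested probe sets of the members these 4 were the ones called. In 7 of the 12 both ING3 arrays were above both control arrays, in 3 they were below and in 2 they overlapped. Of all tested genes, each read by its brightest probe set, 49.2% did not overlap. The share over all tested probe sets was not computed. Of the 7 probe sets with a mean signal over 5000, 6 had log2 differences between 0.19 and 0.50, and the exception was the brightest. The median over the 12 was 0.25. All CD44 probe sets with a mean signal over 5000 were brighter than that of DKK1. They thus lie in the range of the brightest 10% of tested genes, where the median log2 difference was 0.055 and 2.71% rose. Quantile normalization left 3 of the 4 called and cyclic loess 1. The part of brightness in these values was not tested.

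Besides the brightest, the lower ones that did not overlap were dim. One dim probe set had 303 and 294 in ING3 cells, against 372 and 422 in control cells (log2 difference -0.41, SE 0.15, adjusted p = 0.26). A dimmer one, of the _x_at kind, had 81.9 and 75.4 in ING3 cells, against 216 and 160 in control cells (log2 difference -1.23, SE 0.27, adjusted p = 0.10). Neither passed the test, though the _x_at probe set was called lower in a fit with the letters a and b as a block. The eighth brightest had 3578 and 3824 in ING3 cells, against 3146 and 5238 in control cells, and the twelfth had 80.2 and 70.2, against 64.4 and 97.9. Both overlapped. The dimmest, under the filter, also overlapped, with 2.71 and 14.4 in ING3 cells, against 6.49 and 4.63 in control cells. The 95% interval of the third brightest lay wholly above that of the brightest, which was -0.17 to 0.066 in the same fit, while the difference between probe sets was not itself tested. The positions of the probes were not given in the sources used here, so no value is assigned to an exon or isoform. With either control array left out limma called 0 probe sets of the members, and the 4 that rose kept the higher mean in ING3 cells in all 12 alternatives run on probe sets. The members had 2 called probe sets without ING3 array a and 1 without ING3 array b.

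**Figure D3:**
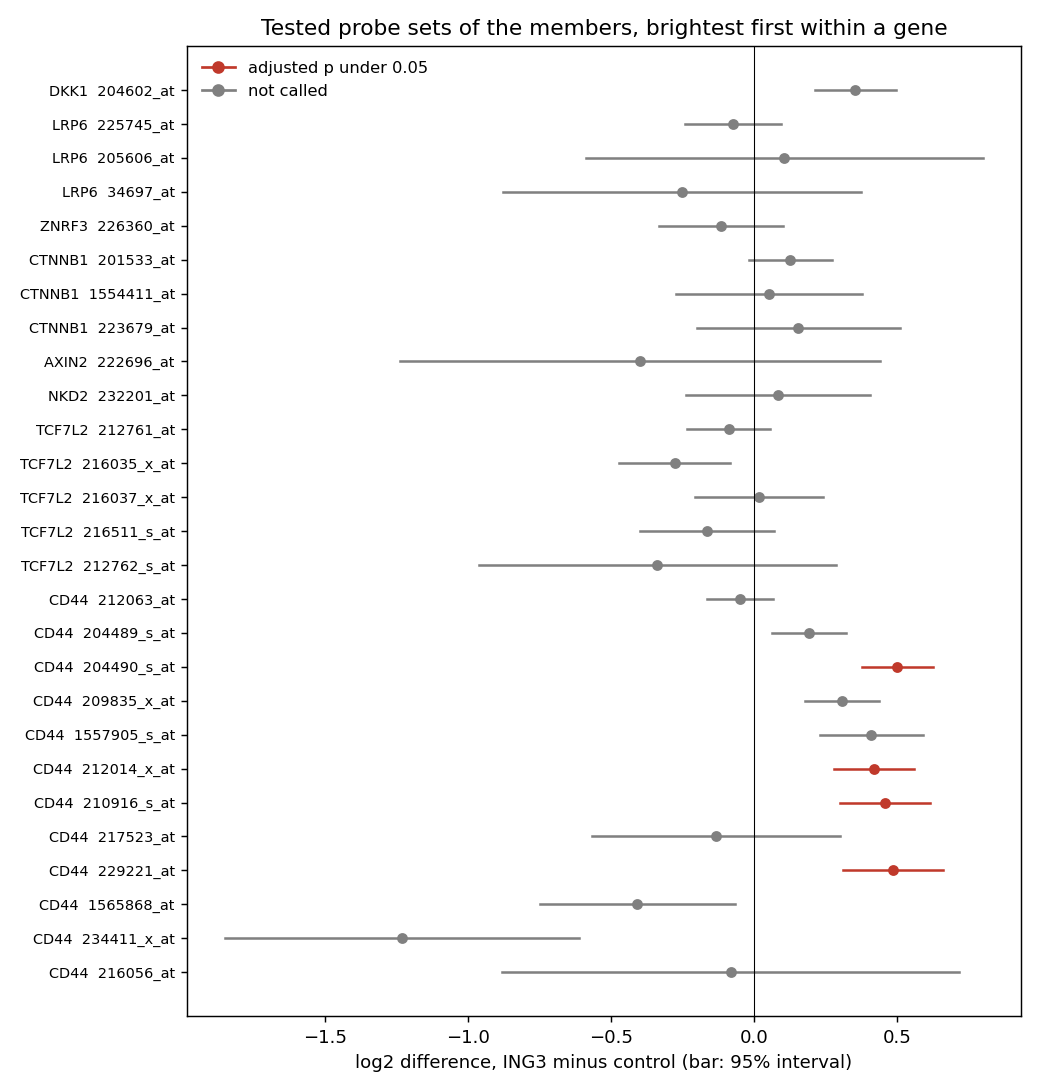
Log2 difference, ING3 minus control, of the 27 tested probe sets of the members, brightest first within a gene, with bars for the 95% interval and red for an adjusted p under 0.05 over all 27307 tested probe sets. The 4 red probe sets all belong to CD44, at 0.42 to 0.50, while its brightest lies at -0.050.

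The other genes of the pathway were read from 8 lists by role, with 131 genes in all. The lists were chosen with earlier results of these data known. Of these, 126 had a probe set of their own and 81 were tested, while 45 lay under the brightness filter. DKK1, SFRP1 and FOSL1 rose, 0 fell and 78 did not pass, where 1.03% of all tested genes rose. With either control array left out 0 of these 3 were called. At an unadjusted p under 0.05 there were 14 of the 81, or 17.3%, against 17.7% of all tested genes. The same 17.7% is the share to set beside the counts at this threshold given for each list below. Of the 81, 38 had the higher and 43 the lower mean in ING3 cells, and their median was -0.0095 (log2), against -0.0074 over all tested genes.

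Among secreted and cell-surface antagonists 2 of 6 tested genes rose, 0 fell and 13 lay under the filter, where 1.03% of all tested genes rose. SFRP1, which binds WNT proteins outside the cell, had 3552 and 3540 in ING3 cells, against 2726 and 2668 in control cells. The duplicates were close and the states far apart, with a log2 difference of 0.39 (1.31-fold, SE 0.063, adjusted p = 0.023). The adjusted p of SFRP1 was 0.058 when every probe set was tested, and the gene was called in 8 of the 14 other settings. Its other 2 tested probe sets were dim and overlapped, with log2 differences of -0.14 and -0.67. KREMEN1 and KREMEN2, receptors that act with DKK1 to clear LRP6, did not pass. KREMEN1 had 512 and 647 in ING3 cells, against 616 and 585 in control cells, and KREMEN2 had 263 and 271, against 159 and 288. TRABD2A, a protease that inactivates WNT proteins, had a log2 difference of 0.20 (SE 0.22).

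Ligands were mostly dim. Of 18 measured genes for WNT proteins and their secretion 7 were tested, 11 lay under the filter and 0 were called (1 at an unadjusted p under 0.05). WLS, the carrier that brings WNT proteins to the cell surface, had 388 and 457 in ING3 cells, against 488 and 487 in control cells (log2 difference -0.21, SE 0.14). WNT7B, named after its values were seen for its distance from the rest, had 125 and 157 in ING3 cells, against 108 and 30.9 in control cells, on a probe set of the _x_at kind (log2 difference 1.26, SE 0.52, adjusted p = 0.25). Its size rests on the second control array. WNT6 and WNT9A differed by 0.052 and -0.12, within the spread of their duplicates.

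Of 11 tested receptors 0 were called (1 at an unadjusted p under 0.05), and 7 had the lower mean in ING3 cells. Besides LRP6, the brightest were RYK, a WNT-binding pseudokinase, and the Frizzled FZD6. RYK had 6588 and 6860 in ING3 cells, against 6533 and 6297 in control cells, and FZD6 had 1855 and 1860, against 2004 and 2010. The log2 differences were 0.068 (SE 0.059) and -0.11 (SE 0.071). In the R-spondin arm 0 of 4 tested genes were called (1 at an unadjusted p under 0.05). LGR4, an R-spondin receptor, had 274 and 269 in ING3 cells, against 374 and 342 in control cells (log2 difference -0.40, SE 0.16, adjusted p = 0.23). RSPO4, a ligand of that receptor, had 250 and 48.4 in ING3 cells, against 247 and 252 in control cells, so its difference of -1.17 came from 1 array. LGR5 and RNF43, named outside the rule, lay under the filter and were not tested. RNF43, the ubiquitin ligase akin to ZNRF3, had 11.3 and 12.7 in ING3 cells, against 50.8 and 44.4 in control cells, with no overlap (log2 difference -1.90). LGR5 had 41.4 and 26.7 in ING3 cells, against 24.1 and 3.68 in control cells. It did not overlap either, and went the other way (log2 difference 1.66). Other genes under the filter did not overlap, among them the targets TNFRSF19 (2.06) and SP5 (-1.54), also named after their values were seen.

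Among cytoplasmic transducers and genes of the destruction complex 0 of 21 tested were called (2 at an unadjusted p under 0.05). CSNK1A1, the kinase that primes beta-catenin for degradation, had 16847 and 18026 in ING3 cells, against 15140 and 16160 in control cells, and the log2 difference came to 0.16 (SE 0.060, adjusted p = 0.22). GSK3B, the kinase that follows it, had 4024 and 4311, against 4043 and 4600, and overlapped. Among TCF/LEF factors and cofactors 0 of 15 tested were called (3 at an unadjusted p under 0.05, where 17.7% of all tested genes were). The corepressors CTBP1 and CTBP2 differed by 0.079 and 0.027 (log2), each overlapping between the states. In the planar polarity arm 0 of 9 tested were called and 0 had an unadjusted p under 0.05. SCRIB, CELSR1 and VANGL1 differed there by 0.024, -0.14 and 0.096 (log2).

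Among transcriptional targets 2 of 12 tested genes rose, 0 fell and 12 lay under the filter, and 5 had an unadjusted p under 0.05. Of all tested genes 1.03% rose and 17.7% had an unadjusted p under 0.05. Besides DKK1 the gene that rose was FOSL1, an AP-1 subunit that other pathways also induce, with 2122 and 1822 in ING3 cells, against 1215 and 1153 in control cells (log2 difference 0.73, SE 0.093, adjusted p = 0.0094). MYC had 14311 and 15551 in ING3 cells, against 11487 and 12914 in control cells, and JUN had 8910 and 9508, against 8012 and 8229. Both stood above their control arrays without passing, at 0.29 (SE 0.071, adjusted p = 0.080) and 0.18 (SE 0.059, adjusted p = 0.16). The median of the 12 tested targets was 0.11. The tested targets that also inhibit the pathway did not share a direction: DKK1 rose, and AXIN2, ZNRF3 and NKD2 had differences of -0.40, -0.12 and 0.083, none of which passed. Other such targets, RNF43 among them, lay under the filter and were not tested.

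Beta-catenin also joins cadherins at cell contacts. Of the 3 tested genes of that list 0 were called and 0 had an unadjusted p under 0.05. CTNNA1, alpha-catenin, had 7205 and 7621 in ING3 cells, against 6709 and 6828 in control cells (log2 difference 0.13, SE 0.058), and JUP, plakoglobin, had 349 and 338, against 380 and 418 (-0.22, SE 0.14). Around CD44, 1 of 6 tested genes rose and 0 fell, where 1.03% of all tested genes rose. EZR, ezrin, which ties the tail of CD44 to actin, had 8867 and 8272 in ING3 cells, against 6825 and 6719 in control cells, and rose 1.26-fold (0.34 on the log2 scale, SE 0.060, adjusted p = 0.031). Over all probe sets the adjusted p of this one was 0.072, and EZR was called in 6 of the 14 other settings, and not with either control array left out. Of its 3 other tested probe sets 1 was above its control arrays (0.36), while 2 overlapped (0.050 and -0.22), and none was called. EZR also lies among the brightest 10% of tested genes, where 2.71% rose. Its limma adjusted p was 0.069 after quantile normalization and 0.065 after cyclic loess (log2 differences 0.28 and 0.29). The part of brightness in the value of EZR was not tested. RDX and MSN, the other linkers of its family, differed by -0.059 and -0.077 (log2), and ADAM10, a sheddase of CD44, by 0.051. None of these passed.

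**Figure D4:**
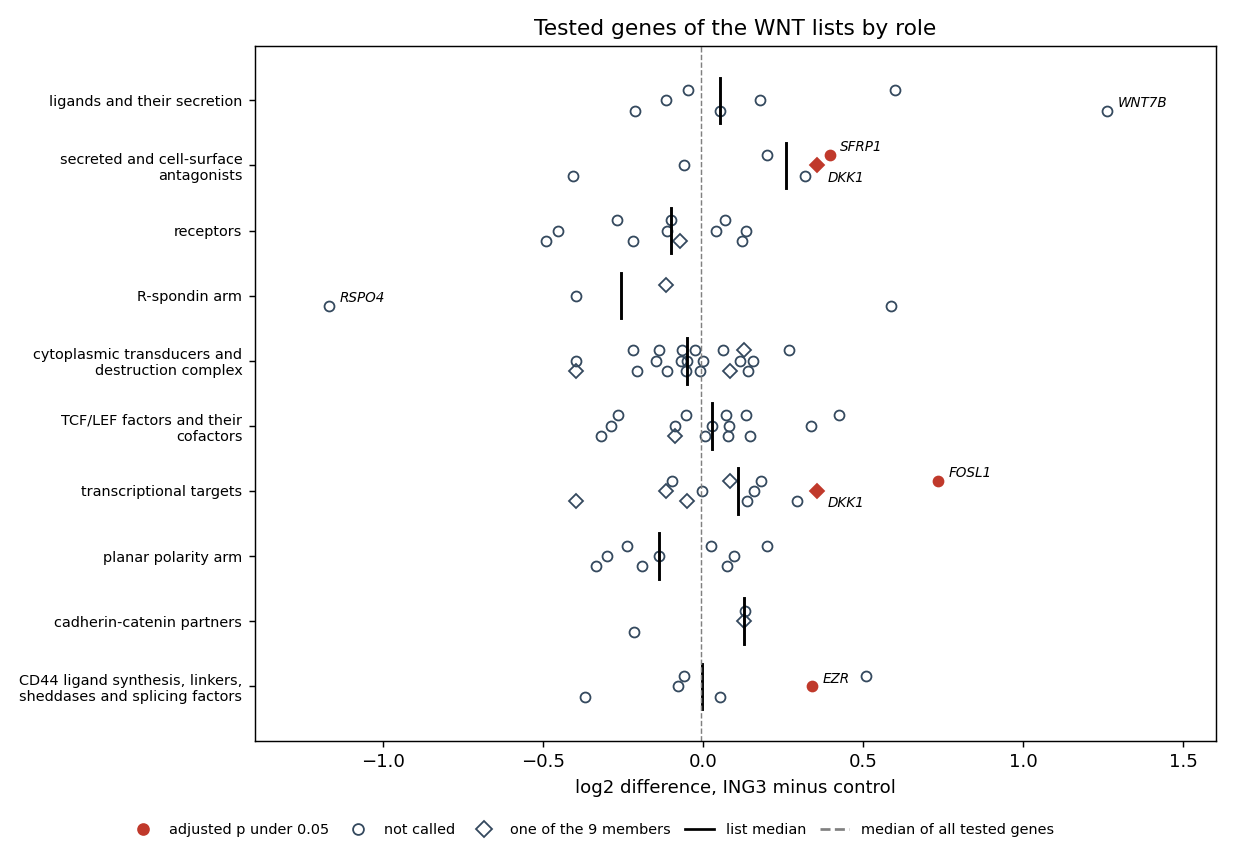
Log2 difference, ING3 minus control, of every tested gene in 10 lists of WNT and CD44 genes (a gene can stand in more than 1 list), with filled red symbols for genes called over all genes, diamonds for the 9 members, a bar at each list's median and a dashed line at the median of all tested genes, -0.0074. DKK1, SFRP1, FOSL1 and EZR are the called genes, and most points lie near the dashed line.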

How the data were processed

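Gene expression was measured on 4 single-colour arrays, 2 of ING3 cells and 2 of control cells, grouped by their titles. Signal intensity on a linear scale was deposited for every probe set, and the submitters' processing notes name Affymetrix Expression Console and MAS5 without versions. No correction for brightness-dependent differences between arrays was added. No detection calls were used. Arrays have no read depth, and their number limits the precision.

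Probe sets were named from GEO's platform annotation where it gave 1 symbol (41097 probe sets), and 62 control probe sets were left out. Signals were transformed as log2(signal + 1), which shrinks the measured folds of dim genes. Dim signals can also differ widely between duplicates, as on the dimmest TCF7L2 probe set, so their folds are imprecise. The test was limma's (version 3.58.1, R 4.3.3), two-sided, using lmFit and eBayes with an intensity trend and no covariates. Each gene had 2 residual degrees of freedom and the prior added 7.35, and the code was tested on simulated data. Genes named are the 9 members, the called genes of each list and up to 3 of its brightest tested genes that were not called, besides ING3 and marker genes. WNT7B, LGR5, RNF43, TNFRSF19 and SP5 were named outside this rule, after their values were seen. The members and lists were chosen with earlier results of these data known. WNT3, WNT3A, PORCN, FZD8, TCF7, CTNND1, HAS1 and ESRP2 are not analysed here. Promoter sequences are RefSeq's. Alternatives were another pseudocount, other brightness filters, other variance models, quantile and cyclic loess normalization, other rules for probe sets, each array left out, and a replicate block.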

Additional observations from a re-analysis of the deposited data

How the results depend on the processing

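The signs of the members' differences held under all 14 alternatives (13 for LEF1, whose probe sets are all of the _s_at kind), except for CD44, at 0.084 with the mean of all probe sets per gene, and NKD2, which ran from -0.048 to 0.21 over the fits that left out 1 array. Called members (1), pathway genes (3), genes (183) and member probe sets (4) became 0, 1, 54 and 0 with no filter on dim genes and 0, 0, 0 and 0 without the intensity trend. Quantile normalization left 0 members and 115 genes, cyclic loess 1 member probe set, leaving out _x_at and _s_at probe sets 100 genes, and the mean of all probe sets 0 members, 1 pathway gene and 37 genes. Leaving out 1 array gave 0 to 1 members, 0 to 5 pathway genes, 2 to 305 genes and 0 to 2 member probe sets; the lone array of a state is then assumed to vary like the others. The adjusted p of DKK1 ran from 0.0086 to 0.28.

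The letters a and b were also fitted as a replicate block, which called 5 pathway genes, 442 genes and 8 member probe sets, 1 of them lower in ING3 cells, the _x_at probe set of CD44 at -1.23 (adjusted p = 0.037). The letters share only a name: the differences between arrays a and b correlated at 0.029 between the states (12190 genes). Technical duplicates, with no number of clones or cultures given, limit every statement, and dim probe sets such as those of LEF1 and AXIN2 limit theirs most. The causes of these changes were not tested.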
